A study of Oryzias latipes with 2 samples.

Results

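The cells described here are the male pituitary cells in which the transcripts of both gonadotropin β subunits, *lhb* and *fshb*, were above background. They were chosen in the male library of a single-cell RNA-seq data set, among cells that the authors annotated as Lh gonadotropes, Fsh gonadotropes or gonadotrope-like cells. A cell was taken as an *lhb*-*fshb* cell when *lhb* (ENSORLG00000003553) exceeded 89.0 and *fshb* (ENSORLG00000029237) exceeded 53.6 unique molecular identifiers (UMIs, counted transcript molecules) per 10000 UMIs of the cell. This gave 85 cells among 1537 annotated gonadotrope-type cells, 3804 male cells and 6396 cells in the whole data set. Cells of the same annotated types with only *lhb* above its cut-off (903 *lhb*-only cells) or only *fshb* above its cut-off (230 *fshb*-only cells) served for comparison, and 319 cells were above neither.

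The pituitaries came from adult medaka of the d-rR lhb:GFP line at about 8 months of age, 23 males in the male library and 24 females in the female library. In this line the *lhb* promoter drives green fluorescent protein (GFP), so that the GFP transcript is a second readout of *lhb* promoter activity, and all cells of both libraries carry the transgene. Fish were pooled before trypsin dissociation and 10x Chromium 3′ capture, with 1 library per sex, so that no cell can be traced to a fish and nothing here was tested between animals. All intervals below are 95% intervals for counting error only, and cells are not replicates.

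Luteinizing hormone (Lh) and follicle-stimulating hormone (Fsh) are heterodimers that share an α subunit, encoded by *cga*, and differ in the β subunit, encoded by *lhb* or *fshb*. Both hormones are secreted under hypothalamic control and act on the gonads. In mammals many gonadotropes make both hormones, whereas in teleost fish Lh and Fsh are made mainly by distinct cells.

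The male library held 17691130 UMIs. The deposited files no longer contain the cells to which the authors had given the highest doublet scores (a doublet is a pair of cells captured as 1), and no further doublet calling was done here. The male and the female library shared 16 cell barcodes, none of them in an *lhb*-*fshb* cell. Each 3′ UMI stands for 1 molecule whatever the length of the transcript, and UMIs of *lhb* and *fshb* are set side by side within a cell. Whether transcripts of both genes are captured and counted equally well was not tested.

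The 85 cells made up 5.53% (4.44 to 6.79) of the gonadotrope-type cells. They were 8.60% (6.93 to 10.5) of the 988 cells above the *lhb* cut-off and 27.0% (22.2 to 32.3) of the 315 cells above the *fshb* cut-off. Of the annotated Lh gonadotropes, 46 of 895 were *lhb*-*fshb* cells, or 5.14% (3.79 to 6.80). Of the annotated Fsh gonadotropes, 30 of 198 were, or 15.2% (10.5 to 20.9), and of the gonadotrope-like cells 9 of 444, or 2.03% (0.931 to 3.81). The annotation itself followed *fshb*. No annotated male Fsh gonadotrope had an *fshb* level under 147.9 UMIs per 10000, and no Lh gonadotrope or gonadotrope-like cell had a level over 145.8. Outside the gonadotrope types, 6 of 2267 male cells were above both cut-offs, 5 of them annotated as red blood cells and 1 as a melanotrope.

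Transcripts released from broken cells can give low counts in cells that do not make them, and their part in these counts was not tested. In lactotropes, which make prolactin and serve here as cells that should lack both genes, the median level was 14.1 for *lhb* and 2.50 for *fshb*, at a median depth of 5763 UMIs. None of 397 lactotropes exceeded the *fshb* cut-off, which allows a share of up to 0.925%, and 1 exceeded the *lhb* cut-off. Among somatotropes, which make growth hormone, 0 of 127 exceeded the *fshb* cut-off and 3 exceeded that of *lhb*. The *fshb* cut-off was exceeded by 1 of 55 corticotropes, 1 of 46 thyrotropes and 1 of 160 *cga*-expressing cells, and the *lhb* cut-off by 3, 7 (15.2%) and 5 of them. The *fshb* level of *lhb*-only cells had a median of 4.23 and a 95th percentile of 28.2, against 2.50 and 7.91 in lactotropes. Part of the *lhb*-only cells thus lay above the lactotrope range of *fshb*. The lowest *fshb* level in an *lhb*-*fshb* cell was 53.8.

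Because the cells were chosen on *lhb* and *fshb*, the levels of these genes are given as a description. In the 85 cells, *lhb* ran from 107.9 to 2830 UMIs per 10000 with a median of 645.5, close to the median of 541.9 in *lhb*-only cells. In the same cells *fshb* ran from 53.8 to 1022 with a median of 104.9, against a median of 489.7 in *fshb*-only cells. Thus *lhb* was in the range of other *lhb* cells, while *fshb* was mostly in the lower part of the range of other *fshb* cells. The median *lhb* level of *lhb*-only cells was exceeded by 51 of the 85 cells, but the median *fshb* level of *fshb*-only cells by 6. Each cell held 37 to 2197 UMIs of *lhb* and 12 to 2051 UMIs of *fshb*, and no cell had fewer than 10 UMIs of either gene.

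**Figure D1:**
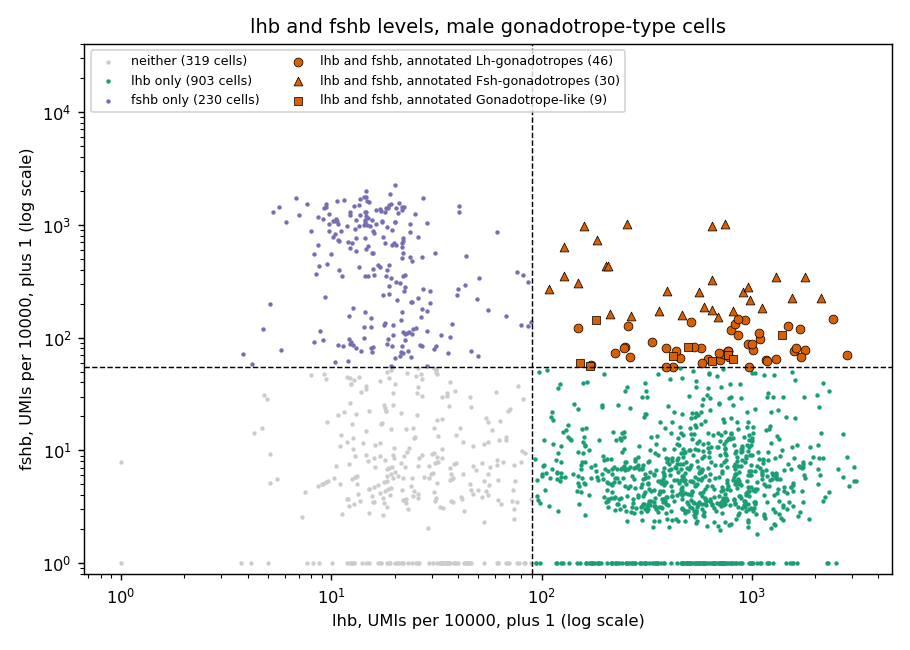
Levels of *lhb* (horizontal) and *fshb* (vertical) in each of the male gonadotrope-type cells, as UMIs per 10000 plus 1 on log scales, with dashed lines at the cut-offs. The 85 *lhb*-*fshb* cells (orange, with the shape giving the authors' annotation) lie within the *lhb* range of the 903 *lhb*-only cells, 43 of them between 1 and 2 times the *fshb* cut-off and 21 above 4 times.

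The *fshb* levels just inside the cut-off were 53.8, 54.1 and 54.3, and those just outside it 52.3, 51.9 and 50.8. For *lhb* the nearest members had 107.9, 127.2 and 127.5, and the nearest cells outside had 88.1, 85.1 and 85.0. In *lhb* cells the *fshb* level therefore thinned out gradually across the cut-off, with 49 cells between 0.5 and 1 times the cut-off, 43 between 1 and 2 times, 21 between 2 and 4 times and 21 above. Among the 315 *fshb* cells, by contrast, *lhb* had few intermediate values, with 13 cells between 0.5 and 1 times the *lhb* cut-off, 9 between 1 and 2 times, 13 between 2 and 4 times and 63 above 4 times.

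The balance of the 2 subunits varied widely from cell to cell. *fshb* supplied from 2.36 to 86.1% of the combined *lhb* and *fshb* UMIs, with a median of 14.1% and quartiles of 8.63 and 25.4%. Across the 85 cells the levels of the genes had a Spearman correlation of -0.12, a description of cells from 1 library that were all cut at the same thresholds. In 74 cells *lhb* UMIs were the more numerous, and in 11 cells *fshb* UMIs were.

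These 11 cells are set beside the other 74 here. All 11 were annotated as Fsh gonadotropes, against 19 of the 74, which follows from their high *fshb* levels. The median GFP transcript level was 802.7 (344.4 to 2458) in the 11 cells and 2286 (243.7 to 3876) in the 74. GFP depends on the *lhb* promoter and the division used *lhb*, so that the GFP values are a description and not a separate difference. The Fsh-side genes, introduced below, are 10 genes higher in female *fshb*-only than in female *lhb*-only cells. Their summed level had a median of 26.5 (0 to 53.1) in the 11 cells and of 1.77 (0 to 11.3) in the 74. *nr5a1b*, which encodes a relative of steroidogenic factor 1, a transcription factor known to drive gonadotropin genes in mammals, had medians of 20.2 and 6.40. *cyp19b*, which encodes the brain form of aromatase, the enzyme that turns androgens into estrogens, had medians of 11.7 and 1.23. For *cga* the order was the opposite, with medians of 683.4 in the 11 cells and 1142 in the 74. The median depth was 6875 UMIs in the 11 cells and 6942 in the 74. The ranges overlapped for all of these measures, and the division at equal UMIs was made after the values had been seen.

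The *lhb*-*fshb* cells were deeper than either comparison group. The median total was 6878 UMIs (quartiles 4449 and 9740, range 1901 to 28128) in the 85 cells, 4829 UMIs in *lhb*-only cells, 3861 in *fshb*-only cells and 3225 in cells above neither. The median of the *lhb*-*fshb* cells was thus 1.42 times that of *lhb*-only cells and 1.78 times that of *fshb*-only cells. They also contained more genes with a UMI, with a median of 1510 against 1329 and 1254. Of the 85 cells, 13 (15.3%) lay above the 95th percentile of all male cells, 11971.4 UMIs, compared with 34 of 903 *lhb*-only cells (3.77%) and 3 of 230 *fshb*-only cells (1.30%). With the transcripts of GFP, *lhb*, *fshb* and *cga* left out, the medians were 3988, 3242 and 3278 UMIs, or ratios of 1.23 and 1.22.

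Among all cells above the *lhb* cut-off, the share that was also above the *fshb* cut-off was 5.67% (3.13 to 9.33) between 1506 and 3635 total UMIs, 5.28% (2.84 to 8.87) and 7.26% (4.36 to 11.2) in the next quartile ranges up to 7144 UMIs, and 16.2% (11.8 to 21.4) above 7144 UMIs, where 40 of the 85 cells lay. When every cell was thinned to 2000 UMIs, 84 of 948 *lhb* cells (8.86%) were above the *fshb* cut-off, with 40 shallower cells left out. Without thinning the share was 8.60% of all 988 *lhb* cells. The cut-off is a level per 10000 UMIs, which thinning leaves unchanged on average. Similar shares therefore largely follow from the method and cannot show whether the share depends on depth. The part that captured pairs of cells have in these counts was not tested.

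**Figure D2:**
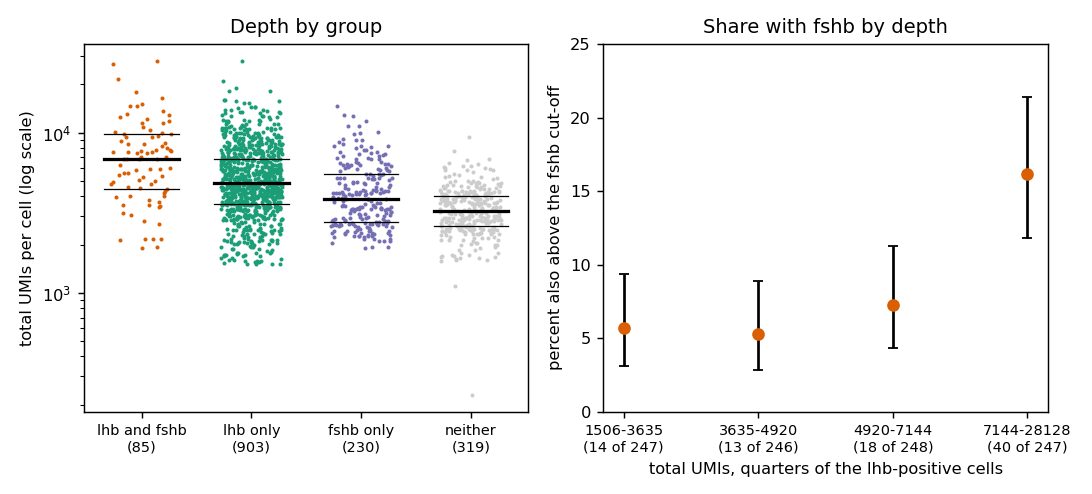
Left, total UMIs of each male gonadotrope-type cell by group on a log scale, with thick lines at the medians and thin lines at the quartiles. Right, percent of cells above the *lhb* cut-off that were also above the *fshb* cut-off in each quartile range of depth, with exact binomial 95% intervals. The 85 *lhb*-*fshb* cells have the highest median (6878 UMIs), and the share reaches 16.2% in the deepest range.

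The GFP transcript was high in nearly all *lhb*-*fshb* cells. It depends on the promoter of a gene that chose the groups, so that its values are a description. Its level ran from 243.7 to 3876 UMIs per 10000 with a median of 2054, close to the median of 2017 in *lhb*-only cells and far above the median of 70.1 in *fshb*-only cells and of 48.0 in lactotropes. A level of 429.6, the 95th percentile of *fshb*-only cells, was exceeded by 80 of the 85 cells (94.1%, 86.8 to 98.1) and by 875 of 903 *lhb*-only cells (96.9%). The reporter was high whatever the annotation. In the 30 *lhb*-*fshb* cells annotated as Fsh gonadotropes the median was 1709 (344.4 to 3876), compared with 57.6 in the 168 *fshb*-only cells of the same annotation. The median was 2394 in the 46 annotated as Lh gonadotropes and 1585 in the 9 gonadotrope-like cells. With the UMIs of all cells summed, the GFP level was 0.95 times that of *lhb*-only cells and 13.8 (13.6 to 14.0) times that of *fshb*-only cells. Among annotated Lh gonadotropes alone the ratio to *fshb*-only cells was 3.45, the 20 *fshb*-only cells of that annotation having a level of 689.6, of which 56.1% came from 1 cell.

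To place the cells with genes other than *lhb* and *fshb*, genes that were at least 4-fold apart between *fshb*-only and *lhb*-only cells were taken from the female library. This gave 10 genes on the Fsh side and the GFP transcript alone on the Lh side, and 7 of the 10 met the same criterion in the male library. GFP is driven by the *lhb* promoter and *lhb* chose the groups. The Lh side is therefore not independent of the choice of cells. Of the 10, the deposited tables name carbonic anhydrase 1, an enzyme that hydrates carbon dioxide, and *sncga*, a γ-synuclein gene. The summed level of the 10 genes had a median of 2.09 UMIs per 10000 in *lhb*-*fshb* cells, 2.11 in *lhb*-only cells and 20.6 in *fshb*-only cells. Its median was 19.45 in lactotropes, 13.6 in somatotropes, 11.5 in corticotropes and 8.16 in thyrotropes. A high sum is thus not particular to Fsh gonadotropes. The 95th percentile of *lhb*-only cells, 9.76, was exceeded by 8 of the 85 cells (9.41%, 4.15 to 17.7) and by 149 of 230 *fshb*-only cells (64.8%). In all, 7 of the 85 cells (8.24%, 3.38 to 16.2) were high on both sides at once, against 40 of 903 *lhb*-only cells (4.43%, 3.18 to 5.98) and 1 of 230 *fshb*-only cells (0.435%). The cuts are 95th percentiles of these comparison groups, so that their shares could not exceed 5.09% and 5.22%. Among *lhb*-only cells the share was 19 of 167 gonadotrope-like cells (11.4%, 6.99 to 17.2) and 21 of 736 annotated Lh gonadotropes (2.85%, 1.77 to 4.33). Of the 7 cells, 5 were annotated as Fsh gonadotropes and 2 as Lh gonadotropes.

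**Figure D3:**
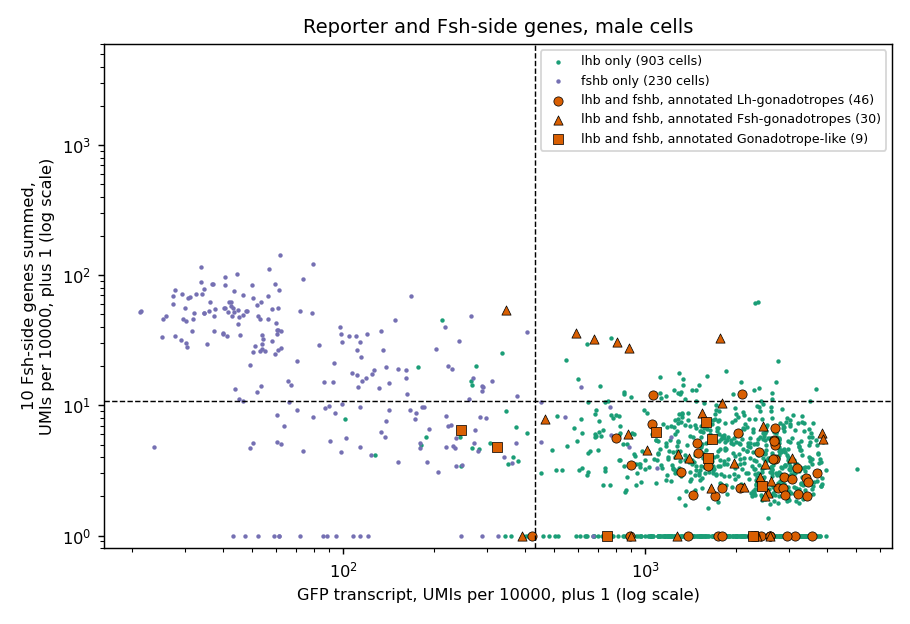
GFP transcript (horizontal) against the summed level of 10 Fsh-side genes (vertical) in each cell, as UMIs per 10000 plus 1 on log scales. Dashed lines mark 429.6 for GFP and 9.76 for the Fsh-side genes. The *lhb*-*fshb* cells (orange) overlap the *lhb*-only cells (green), and 7 of 85 lie in the upper right field.

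Among the *lhb*-*fshb* cells the level of the Fsh-side genes summed over cells was 11.4 (10.2 to 12.7) UMIs per 10000 in the 30 annotated Fsh gonadotropes, 2.05 (1.58 to 2.63) in the 46 annotated Lh gonadotropes and 3.09 (1.89 to 4.77) in the 9 gonadotrope-like cells, whereas *fshb*-only Fsh gonadotropes had 43.5 (42.1 to 45.0). In the 30 cells 26.3% of these UMIs came from 1 cell, and the median over cells was 3.09 in the 30, 1.46 in the 46 and 3.78 in the 9, against 34.1 in *fshb*-only Fsh gonadotropes. The unnamed gene ENSORLG00000027769, 1 of the 10, had 151 UMIs in 17 of the 30 cells, 12 UMIs in 11 of the 46 and 3 UMIs in 2 of the 9. Its level was 5.13 in the 30 cells, 0.391 in the 46 and 20.4 in *fshb*-only Fsh gonadotropes. The genes *itm2cb*, which encodes an integral membrane protein, and *zgc:122979*, both among the authors' male Fsh gonadotrope markers, were also lowest in the cells annotated as Lh gonadotropes. The authors listed these markers on the same annotated cells. Their order between annotations is therefore partly set by that choice and is a description. For *itm2cb* the level was 6.36 in the 30 cells, 0.326 in the 46, 2.32 in the 9 and 22.7 in *fshb*-only Fsh gonadotropes. For *zgc:122979* it was 9.32 in the 30 cells, 1.92 in the 46 and 42.4 in *fshb*-only Fsh gonadotropes, and the 9 gonadotrope-like cells stood highest of the *lhb*-*fshb* cells at 11.1 (8.70 to 14.0). In the 20 *fshb*-only cells annotated as Lh gonadotropes the levels were also low. They were 5.055 (3.52 to 7.03) for the Fsh-side sum, 0.433 for ENSORLG00000027769, 0.433 for *itm2cb* and 3.03 for *zgc:122979*. In the 736 *lhb*-only cells of that annotation the levels were 2.22, 0.452, 1.54 and 3.17, in the same order. Low levels were thus not particular to the *lhb*-*fshb* cells of that annotation, although *itm2cb* was lower in them than in these *lhb*-only cells. In the 167 *lhb*-only gonadotrope-like cells *itm2cb* was at 8.41 (7.79 to 9.07) and *zgc:122979* at 10.8 (10.1 to 11.5). Higher levels of these markers were thus not particular to *lhb*-*fshb* cells. Their Fsh-side sum was 5.89 and ENSORLG00000027769 was at 1.605. Single cells gave 31.0% of the *itm2cb* UMIs of the 30 cells and 38.9% of the *zgc:122979* UMIs of the 9.

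All genes were then compared on summed UMIs per 10000, for the 1631 genes with a mean level of at least 0.5 over the 3 groups, *lhb* and *fshb* excluded. At least 2-fold higher levels than in *lhb*-only cells were seen for 6 genes (0.368% of those tested) and 2-fold lower levels for 9 (0.552%). Relative to *fshb*-only cells 25 genes were 2-fold higher (1.53%) and 207 were 2-fold lower (12.7%). Part of this lay in the totals. GFP, *lhb*, *fshb* and *cga* together took 41.3% of all UMIs in *lhb*-*fshb* cells, 38.1% in *lhb*-only cells and 15.8% in *fshb*-only cells, and the median ratio over all genes tested was 0.72 relative to *fshb*-only cells (-0.47 on the log2 scale) and 0.94 relative to *lhb*-only cells (-0.09). With these 4 transcripts left out of the totals, the medians became 1.03 and 0.99. The counts among 2402 genes were then 116 higher and 67 lower than in *fshb*-only cells, and 7 higher and 9 lower than in *lhb*-only cells, so that the balance of calls against *fshb*-only cells turned while that against *lhb*-only cells did not. The share of higher calls against *fshb*-only cells was 10.8% with all genes in the total and 63.4% without the 4. Some genes called lower than in *fshb*-only cells passed the filter on the mean only through that group.

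Genes that separated the comparison groups lay nearer to the *lhb*-only level in the *lhb*-*fshb* cells on either scale. Of the 118 genes that were at least 2-fold higher in *fshb*-only than in *lhb*-only cells (7.23% of those tested), all 118 were nearer to the *lhb*-only level, at a median of 3.93% of the way from *lhb*-only to *fshb*-only cells (quartiles -5.11 and 10.4%). With the 4 transcripts left out there were 63 such genes, of which 60 were nearer to *lhb*-only cells, at a median of 10.7% of the way (3.64 to 25.8%). Both sets were chosen on the same 2 groups that set the scale. Some genes also passed the filter on the mean only through *fshb*-only cells, so that these positions are a description. The 10 Fsh-side genes chosen in females had a median of 9.17% (-3.46 to 16.4%), and *fshb* itself stood at 27.3%. Of the 20 genes that were 2-fold higher in *lhb*-only than in *fshb*-only cells (1.23%), 17 were nearer to the *lhb*-only level, and 76 of 86 with the 4 transcripts left out. With all genes in the totals, 974 genes (59.7%) were below both comparison groups and 169 (10.4%) above both, whereas with the 4 transcripts left out 789 were below and 810 above. By 2-fold, 7 genes (0.429%) were below both, among them *gb*, *hbbe2* and ENSORLG00000023504.

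Of the 6 genes above *lhb*-only cells, 5 were also 2-fold higher in *fshb*-only than in *lhb*-only cells, a count that the filter on the mean of the 3 groups partly sets, since some low genes passed it only through *fshb*-only cells. ENSORLG00000027769 was at 2.49 UMIs per 10000 in *lhb*-*fshb* cells, 0.637 in *lhb*-only and 16.3 in *fshb*-only cells, or 3.91 (3.23 to 4.73) times the *lhb*-only level. Among annotated Lh gonadotropes alone, the ratio to *lhb*-only cells was 0.87. ENSORLG00000017966 had 28 UMIs in 14 of the 85 cells, and its level of 0.421, under the filter in these cells, was 17.7 (8.70 to 38.1) times the *lhb*-only level of 0.0238, against 2.44 in *fshb*-only cells. Of these 28 UMIs, 22 lay in 8 annotated Fsh gonadotropes, 3 in 3 Lh gonadotropes and 3 in 3 gonadotrope-like cells. The remaining gene of the 6 was *sl*, the gene of somatolactin, a hormone of fish related to growth hormone. It alone was 2-fold above both groups (0.0613% of genes tested), with a level of 18.0 against 0.987 and 1.16, but 1146 of its 1200 UMIs came from 1 cell of 17890 UMIs annotated as an Fsh gonadotrope. Without that cell the *sl* level was 0.834, or 0.84 (0.63 to 1.12) times that of *lhb*-only cells, and no other of the 85 cells had more than 4 UMIs.

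Of the named genes high in *fshb*-only cells, 5 are given here as a description. Some of them were picked for their low ratios to *fshb*-only cells. *cyp19b* stood at 3.71 (3.26 to 4.20), beside 3.76 (3.59 to 3.93) in *lhb*-only cells, and 0.25 (0.21 to 0.28) times the 15.1 of *fshb*-only cells. Among annotated Lh gonadotropes alone it was at 1.96 (1.49 to 2.52) against 3.33 (3.16 to 3.51) in *lhb*-only cells, a ratio of 0.59, and in the 30 annotated Fsh gonadotropes at 4.69. Carbonic anhydrase 1 stood at 0.872, between 0.480 in *lhb*-only and 4.65 in *fshb*-only cells. *zgc:122979* was at 6.08, 4.40 and 36.3, and *itm2cb* at 3.19, 2.64 and 18.6, in the same order of groups. *arrdc3a*, a gene of the arrestin-domain family, was at 0.451, 0.479 and 2.16, so that it passed the filter on the mean only through *fshb*-only cells. For these 5 genes the level was at least 2-fold below *fshb*-only cells on both scales. With all annotations together it was within 2-fold of *lhb*-only cells, a group that holds no annotated Fsh gonadotrope. Among annotated Lh gonadotropes alone, *itm2cb* was at 0.326 (0.156 to 0.600) against 1.54 (1.42 to 1.66) in *lhb*-only cells.

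The shared subunit gene *cga* was at 1174 (1166 to 1182) UMIs per 10000 in *lhb*-*fshb* cells, 932.5 in *lhb*-only cells and 632.8 in *fshb*-only cells, or 1.26 and 1.85 times higher. Its median over cells was 1106 against 711.7 and 468.8, and its range in the 85 cells, 46.4 to 3645, lay within that of *lhb*-only cells, 19.4 to 4766. *nr5a1b* showed the opposite order, at 8.83 (8.13 to 9.58), 12.2 (11.9 to 12.6) and 23.6 (22.7 to 24.6). It was 0.72 (0.66 to 0.79) times the *lhb*-only level and 0.37 (0.34 to 0.41) times the *fshb*-only level, or 0.54 times with the 4 transcripts left out. Stathmin 1 (*STMN1*), which destabilises microtubules, was at 8.02, 10.9 and 19.0, and *psmb7*, a proteasome subunit gene, at 18.5, 22.2 and 38.1. Both belong to the 5 genes that the authors list as markers of gonadotrope-like cells, a list made on these same cells, of which 4 were 2-fold lower than in *fshb*-only cells (12.7% of all genes tested) and none passed 2-fold against *lhb*-only cells (0.368% higher and 0.552% lower). With the 4 transcripts left out of the totals, *STMN1* was 0.61 times and *psmb7* 0.69 times the *fshb*-only level, so that these and *nr5a1b* were no longer past 2-fold. *qpct*, whose product forms pyroglutamate at the start of peptides, was at 12.4, 14.1 and 7.22, and *nif3l1* at 22.5, 27.5 and 13.1. *rpl7*, a ribosomal protein gene, was at 41.6, 42.4 and 66.8. Ratios to *fshb*-only cells were 1.72 for *qpct*, 1.71 for *nif3l1* and 0.62 for *rpl7*. The median ratio over genes was 0.72 on these totals and 1.03 with the 4 transcripts left out. Over the alternative settings the ratio to *fshb*-only cells ran from 1.49 to 3.35 for *cga* and from 1.08 to 2.51 for *nif3l1*. Whether *cga* and *nif3l1* passed 2-fold against *fshb*-only cells thus depended on the setting.

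**Figure D4:**
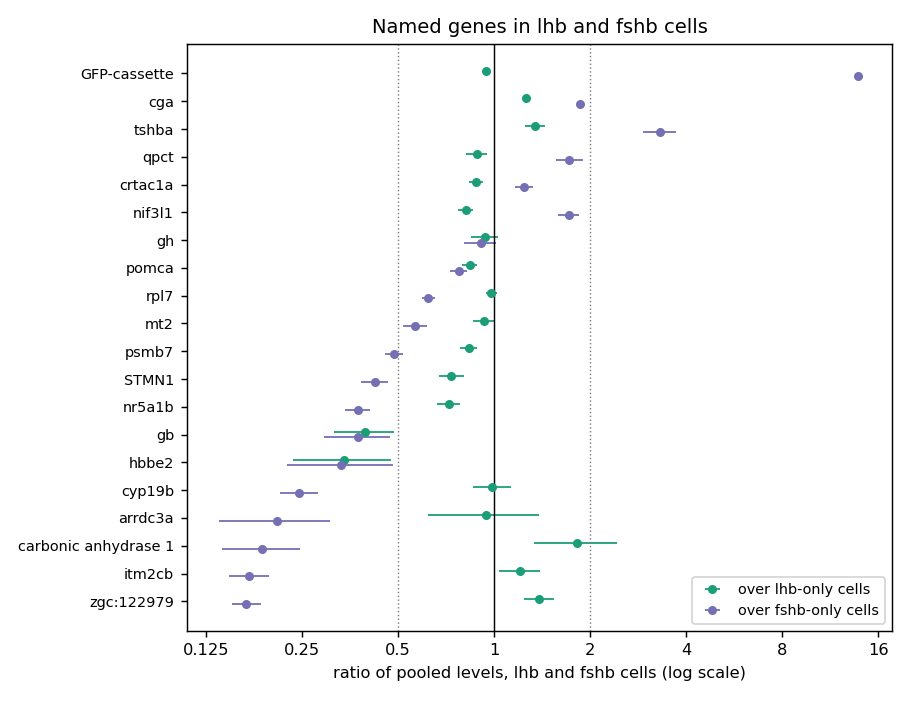
Ratio of the summed level in the 85 *lhb*-*fshb* cells to that in *lhb*-only cells (green) and in *fshb*-only cells (purple) for 20 named genes, on a log scale, with exact 95% intervals for counting error. Dotted lines mark 2-fold. Most ratios to *lhb*-only cells lie within 2-fold, whereas GFP is 13.8 times and *zgc:122979* 0.17 times the *fshb*-only level.

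Another hormone subunit gene was also present in some of these cells. *tshba*, which encodes the β subunit of thyroid-stimulating hormone and pairs with the same α subunit, was at 12.8 (12.0 to 13.7) UMIs per 10000, 9.56 (9.30 to 9.84) in *lhb*-only cells and 3.89 (3.52 to 4.29) in *fshb*-only cells. It exceeded its cut-off of 19.1 in 16 of the 85 cells (18.8%, 11.2 to 28.8), 102 of 903 *lhb*-only cells (11.3%, 9.30 to 13.5), 12 of 230 *fshb*-only cells (5.22%, 2.73 to 8.94) and 1 of 397 lactotropes. Among the cells above neither cut-off it was exceeded in 68 of 319 (21.3%, 17.0 to 26.2), and their *tshba* level was 16.6. Among annotated Lh gonadotropes alone, *tshba* was 1.28 times the *fshb*-only level, against 3.30 times in all annotations. In the 20 *fshb*-only cells of that annotation 47.7% of the *tshba* UMIs came from 1 cell. Their median *tshba* level was 0, against 3.18 in the 46 *lhb*-*fshb* cells. The intervals of the shares in *lhb*-*fshb* and *lhb*-only cells overlapped. In the 85 cells *tshba* ranged from 0 to 87.2 with a median of 1.99, and 56 cells had at least 1 UMI.

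Transcripts of other pituitary hormones were at similar levels in the 3 groups. *prl* (prolactin) had a median of 15.5 (5.27 to 41.4) in *lhb*-*fshb* cells, 16.2 in *lhb*-only and 16.4 in *fshb*-only cells. On summed counts *prl* was at 15.0, 16.1 and 34.3, but 50.7% of the *prl* UMIs of *fshb*-only cells came from 1 cell. *gh* (growth hormone) was at 7.09, 7.58 and 7.82, and *pomca*, the precursor of corticotropin and melanotropin, at 21.3, 25.4 and 27.5. The 99th percentile of *lhb*-only cells was exceeded by 0 of the 85 cells for *prl* (up to 4.25%), 0 for *gh*, 1 for *pomca* and 1 for *sl*. The 3 red blood cell genes tested, *gb*, *hbbe2* and hemoglobin, were all 2-fold lower than in *lhb*-only cells, as were 0.552% of all genes tested, and their list summed to 2.63, against 6.70 in *lhb*-only and 6.41 in *fshb*-only cells. For *gb* 25.4% of the UMIs of *lhb*-only cells came from 1 cell, and its median over cells was 1.18, 0.963 and 1.23. UMIs of *hbbe2* were found in 28 of the 85 cells and 273 of 903 *lhb*-only cells, and those of hemoglobin in 26 and 227. The share of cells with a UMI of these genes was thus not lower in the *lhb*-*fshb* cells, which were deeper.

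Of 138 gene symbols in the lists chosen for gonadotropes, steroid receptors, secretion, immediate early genes, cell cycle and other cell types, 8 could be matched to the identifiers of the matrix, and the remaining lists are not analysed here. The authors' marker table names 5 genes for Fsh gonadotropes, of which 4 were tested and all 4 were 2-fold below *fshb*-only cells, as were 12.7% of all genes, with a median ratio of 0.17 against 0.72 for all genes. Of the 4 tested markers of Lh gonadotropes, 1, the GFP transcript, was 2-fold above *fshb*-only cells (1.53% of all genes), and none passed 2-fold against *lhb*-only cells (median ratio 0.91 against 0.94 for all genes). These lists were made by the authors on the same cells.

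Reads from introns come largely from unspliced RNA. Because *lhb* and *fshb* chose the groups, the intron and spanning UMIs of these 2 genes are not independent of that choice. Their values are a description and not separate evidence. Intron UMIs of *lhb* were found in 26 of the 85 cells (30.6%, 21.0 to 41.5), 310 of 903 *lhb*-only cells (34.3%, 31.2 to 37.5), 20 of 230 *fshb*-only cells (8.70%, 5.39 to 13.1) and 13 of 397 lactotropes (3.27%, 1.75 to 5.53). Intron UMIs of *fshb* were found in 5 of the 85 cells (5.88%, 1.94 to 13.2), 5 of 903 *lhb*-only cells (0.554%, 0.180 to 1.29), 75 of 230 *fshb*-only cells (32.6%, 26.6 to 39.1) and 1 of 397 lactotropes (0.252%). The 8 *fshb* intron UMIs of the *lhb*-*fshb* cells were 6 in 3 annotated Fsh gonadotropes and 2 in 2 annotated Lh gonadotropes. Per 1000 *fshb* UMIs, intron UMIs numbered 0.549 in *lhb*-*fshb* cells and 1.64 in *fshb*-only cells. With 8 UMIs the level has a wide interval, 0.120 (0.0519 to 0.237) UMIs per 10000, which lies above that of *lhb*-only cells, 0.00993 (0.00322 to 0.0232), and below that of *fshb*-only cells, 1.28 (1.07 to 1.52). For *lhb* the level of intron UMIs was 0.526 (0.366 to 0.731) in *lhb*-*fshb* cells and 1.18 (1.09 to 1.28) in *lhb*-only cells. Intron UMIs of *cga* were found in 78 of the 85 cells, 778 of 903 *lhb*-only and 194 of 230 *fshb*-only cells. Spanning UMIs were counted apart from exon and intron UMIs. Those of *fshb* were found in 82 of the 85 cells, 220 of 230 *fshb*-only, 145 of 903 *lhb*-only cells and 22 of 397 lactotropes. Per 1000 *fshb* UMIs they numbered 73.59 (69.25 to 78.13) in *lhb*-*fshb* and 77.8 (75.88 to 79.75) in *fshb*-only cells. The gap seen for *fshb* intron UMIs was thus not seen for spanning UMIs. Whether spanning UMIs come from unspliced RNA was not tested.

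**Figure D5:**
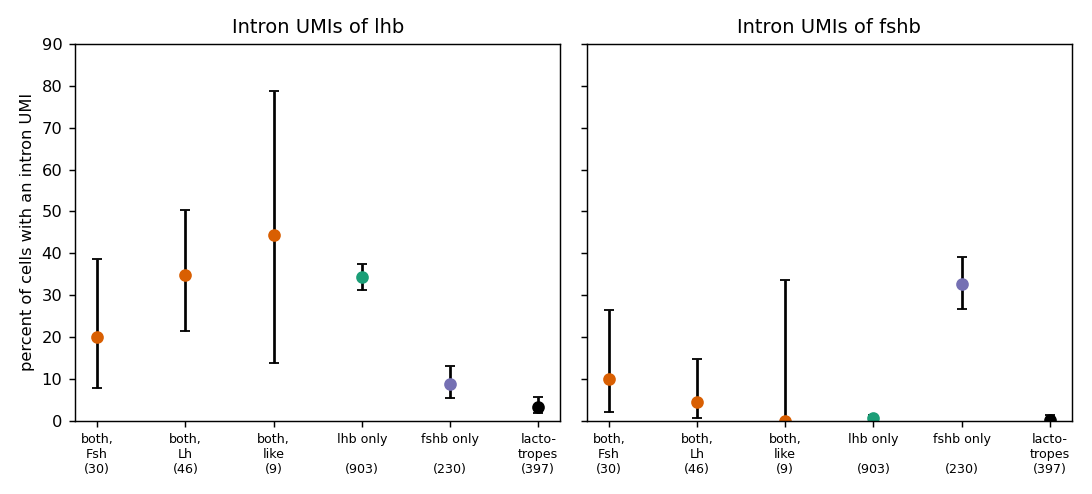
Percent of cells with at least 1 intron UMI of *lhb* (left) and of *fshb* (right), with exact binomial 95% intervals, for *lhb*-*fshb* cells by annotation, *lhb*-only cells, *fshb*-only cells and lactotropes, with the number of cells in brackets. For *fshb* the share is 32.6% in *fshb*-only cells, 10.0% in the 30 *lhb*-*fshb* Fsh gonadotropes and 4.35% in the 46 Lh gonadotropes.

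The same cut-offs, which were those of the male library, gave 24 *lhb*-*fshb* cells of 1204 gonadotrope-type cells in the female library. This was 1.99% (1.28 to 2.95), below the male 5.53% (4.44 to 6.79) beyond counting error. Cut-offs set for the female library were not used, and the *lhb* level of *lhb*-only cells was 478.5 in females and 694.6 in males. With 1 library per sex the difference between sexes and that between libraries cannot be told apart. Of the 24 female cells 10 were annotated as Lh gonadotropes, 2 as Fsh gonadotropes and 12 as gonadotrope-like cells. The median depth was 5264 UMIs against 4878 in female *lhb*-only and 4208 in female *fshb*-only cells. The female ratios to *lhb*-only cells were 0.64 for GFP, 0.88 for *cga*, 1.29 for *nr5a1b* and 0.28 for *tshba*, where the male ratios were 0.95, 1.26, 0.72 and 1.34. ENSORLG00000027769 was 5.11 (3.61 to 7.11) times the *lhb*-only level in females and 3.91 times in males. For ENSORLG00000017966 the ratios were 9.50 (2.09 to 35.5) and 17.7, with a female level of 0.271 against 0.029. Both *cga* and *tshba* lay above the *lhb*-only level in males and below it in females. Female ratios to *fshb*-only cells were 0.83 (0.70 to 0.99) for *itm2cb*, 0.80 (0.72 to 0.88) for *zgc:122979* and 1.01 (0.90 to 1.14) for *nr5a1b*. The male ratios were 0.17, 0.17 and 0.37. Carbonic anhydrase 1 and ENSORLG00000027769 were at 0.42 and 0.25 in females and 0.19 and 0.15 in males. Whether these ratios differ between the sexes was not tested.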

How the data were processed

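Cells from 1 pooled pituitary library of 23 male and 1 of 24 female medaka were analysed. The authors deposited a matrix of raw UMI counts, the counts of exon, intron and spanning reads, and a cell annotation, all after quality control and exclusion of cells with high doublet scores. The submitters' processing notes name Cell Ranger and Seurat. Coordinates are not printed, since tool versions, genome build and gene models were not given in the sources used here. The authors' marker table gave gene names (63 genes of the matrix with the paper's primer table), and its mean expression and adjusted p columns were not used. No column of another sample was present.

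Cells annotated "Lhb-gonadotropes" (1 cell) were joined with the Lh gonadotropes. The cut-offs, those of the male library, are the natural log of 1 plus UMIs per 10000 of 4.5 (*lhb*), 4 (*fshb*) and 3 (*tshba*). The cells, gene lists and cut-offs were chosen with earlier results of these data known. Group levels are UMIs summed over cells per 10000 summed UMIs. Ratios carry exact conditional binomial, levels exact Poisson and shares Clopper-Pearson intervals at 95%, all for counting error alone. With 1 library per sex no test was made, and a gene was counted when its ratio passed 2-fold at a mean level of at least 0.5. Genes were named from the fixed lists and from the highest and lowest ratios. The comparison of genes was checked on simulated group sums that held counting error and no spread between cells. That check therefore does not cover genes whose UMIs come mostly from 1 cell. Alternatives changed the cut-offs, cell types, depth, counts, totals, minimum level and fold. Python 3.11.15, numpy 2.4.6, scipy 1.17.1, pandas 2.3.3 and matplotlib 3.10.9 were used.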

Additional observations from a re-analysis of the deposited data

How the results depend on the processing

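No paired analysis was possible because each sex is 1 library, and for the same reason no replicate could be left out. Of 22 settings, 4 were chosen after seeing the data (the totals without GFP, *lhb*, *fshb* and *cga*, the same with a mean over cells, leaving out the cell rich in *sl*, and leaving out barcodes present in both libraries). The number of *lhb*-*fshb* cells was 129 with both cut-offs lowered by 0.5 on the natural log scale, 43 with both raised by 0.5 and 43 within the quartiles of depth, and stayed within 1.5 times of 85 otherwise, apart from the settings with 1 annotation, which hold 46 (Lh) and 30 (Fsh) cells by construction. The median depth over *lhb*-only and *fshb*-only cells was 1.14 and 1.12 times within those quartiles and 1 and 1 at 2000 UMIs by construction, and 2.17 times the *fshb*-only depth among annotated Lh gonadotropes. The share of cells high for both GFP and the Fsh-side genes moved between 4.17 and 14.0%, inside the interval of 8.24%. Counts of genes past the fold depended on the setting. Against *lhb*-only cells the genes lower numbered 17 with cut-offs raised by 0.5, 39 in annotated Lh gonadotropes, 17 without the deepest cells (2 higher), 16 within the depth quartiles, 74 after thinning, 24 with a mean over cells and 30 when that mean left out the 4 transcripts, and 11 were higher without gonadotrope-like cells. Against *fshb*-only cells the genes higher and lower numbered 70 and 477 in annotated Lh gonadotropes and 165 and 85 with the mean over cells without the 4 transcripts, 44 were higher within the depth quartiles and 319 lower after thinning, and the counts without the 4 transcripts in the totals were 116 and 67. At a minimum level of 0.2 the counts were 22 and 55 against *lhb*-only and 51 and 587 against *fshb*-only cells, at a minimum of 1 they were 3, 2, 16 and 97, and at a fold of 1.5 they were 18, 71, 52 and 656. Of 456 values of the 21 gene ratios past 2-fold, 441 kept their direction. The *sl* ratio to *lhb*-only and *fshb*-only cells reversed in each setting that dropped the 1 cell rich in *sl*, to 0.88 and 0.0696 with cut-offs raised by 0.25, 0.70 and 0.0526 raised by 0.5, 0.88 and 0.42 in Lh gonadotropes, 0.73 and 0.63 without the deepest cells, 0.97 and 0.74 within the depth quartiles, and 0.84 and 0.72 without that cell. In Lh gonadotropes ENSORLG00000027769 went to 0.87 times *lhb*-only cells and *hbbe2* to 1.69 times *fshb*-only cells, and *prl* went to 1.08 times *fshb*-only cells with the mean over cells without the 4 transcripts; the cause was not tested. The depth of 1901 to 28128 UMIs per cell and the 8 intron UMIs of *fshb* limit the statements on single cells and on unspliced RNA.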
